A study of Rattus norvegicus and Mus musculus with 24 samples.

Results

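The epidermal growth factor (EGF) family was followed in kidneys that lack cystinosin, the lysosomal exporter of cystine encoded by Ctns. The genes were listed by name, with earlier results of these data known: 6 ligands (EGF, TGFA, HBEGF, AREG, EREG and BTC), 3 receptors (EGFR, ERBB2 and ERBB3) and ADAM17, the protease that frees several of the ligands. All 10 have a row among the 17376 symbols of the mouse table, and 8 have one among the 14931 symbols of the rat table; EGF and ADAM17 were not analysed here in the rat. Bulk RNA-seq libraries came from 4 Ctns KO and 4 Ctns WT mice of the C57BL/6 background and from Sprague-Dawley rats, 8 of them Ctns KO and 8 Ctns WT, 1 library per animal. Controls were littermates, and no treatment is named for these animals. The study's reporting summary states that its mice were female and of several ages. Its methods state this only for cell cultures and mechanistic studies. The study does not give the age of the sequenced mice, the age or sex of the sequenced rats, or what the Ctns alleles remove. Rats are numbered 17 to 24 and 25 to 32, with 4 animals of each genotype in each range, and no source used here says what sets the 2 ranges apart. The source is labelled kidney cortex, whereas the same labels name proximal tubule cells and describe dissected tubules; markers of the distal nephron, podocytes, endothelium and leukocytes were all read in these libraries, so the RNA was not that of proximal tubule cells alone.

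EGF family ligands are made as membrane-anchored precursors. Proteases of the ADAM group cut them free, and the released ligand binds a receptor tyrosine kinase on the same or a neighbouring cell, which pairs with another receptor and signals through RAS, ERK and PI3K. In the kidney, EGF itself is a product of the thick ascending limb and distal convoluted tubule, while TGFA, HBEGF and AREG are known as ligands of injured tubules. ERBB2 binds no ligand of its own, and ERBB3, which binds neuregulins, has little kinase activity, so both work in pairs.

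The promoters of 4 members that changed in rats 25 to 32 are shown because AREG and TGFA were higher in Ctns KO kidneys while BTC and EGFR were lower, and AREG and BTC lie near each other on chromosome 14. Each run is the 250 bases before the gene start in RefSeq GRCr8, 5′ to 3′ on the gene's strand. This is not the rat build rn5 named in the submitters' processing notes, and it was used for sequence alone. The regions are chr14:17265642-17265891 (minus strand) for AREG, chr4:120175469-120175718 (plus strand) for TGFA, chr14:16992418-16992667 (plus strand) for BTC and chr14:95378376-95378625 (plus strand) for EGFR. Capitals mark exact matches, on either strand, to the letters of the GC box (GGGCGG), the AP-1 site (TGANTCA), the cAMP response element (TGACGTCA), the ETS core (CCGGAA) or the TATA box, whose letters searched were TATAAA.
AREG: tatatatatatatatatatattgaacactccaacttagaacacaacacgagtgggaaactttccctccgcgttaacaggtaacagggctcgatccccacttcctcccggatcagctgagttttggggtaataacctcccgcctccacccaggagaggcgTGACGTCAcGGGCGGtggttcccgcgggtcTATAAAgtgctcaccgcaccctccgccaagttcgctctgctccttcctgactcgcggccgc
TGFA: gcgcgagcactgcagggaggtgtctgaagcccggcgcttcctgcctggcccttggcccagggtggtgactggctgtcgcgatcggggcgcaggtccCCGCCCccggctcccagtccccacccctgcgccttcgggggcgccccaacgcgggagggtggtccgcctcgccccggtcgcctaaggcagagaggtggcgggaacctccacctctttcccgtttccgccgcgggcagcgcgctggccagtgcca
BTC: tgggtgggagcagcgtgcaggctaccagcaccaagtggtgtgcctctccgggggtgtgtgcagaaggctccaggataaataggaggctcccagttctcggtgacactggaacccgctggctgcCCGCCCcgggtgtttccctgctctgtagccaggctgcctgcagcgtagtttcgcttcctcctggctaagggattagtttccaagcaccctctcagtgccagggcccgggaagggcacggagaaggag
EGFR: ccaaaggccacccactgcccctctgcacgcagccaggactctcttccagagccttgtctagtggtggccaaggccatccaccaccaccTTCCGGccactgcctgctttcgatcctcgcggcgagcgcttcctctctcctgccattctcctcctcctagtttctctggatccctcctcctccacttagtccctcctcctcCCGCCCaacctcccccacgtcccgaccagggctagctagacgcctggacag

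The AREG promoter held a cAMP response element starting at base -91, a GC box at -82 and a TATA box at -61 from the start. TGFA held a GC box at -154, BTC a GC box at -127, and EGFR an ETS core at -162 and a GC box at -51. Of the members not printed, ERBB2 held a GC box at -98 and ADAM17 a GC box at -46, while EGF and HBEGF held no match. No promoter entry was found for ERBB3 or EREG. Among 33469 rat promoters of this length, a GC box was found in 30.5%, a TATA box in 12.9%, an ETS core in 12.6%, an AP-1 site in 6.34% and a cAMP response element in 1.59%. The printed letters are a description of these windows and say nothing of which factor binds there.

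Depth was 19309449 to 44449859 reads on genes per mouse and 24684097 to 40629873 per rat. CTNS was checked first. In mice its scaled value, in which 1 is the 75th percentile of a library, was 0.332 ± 0.0102 in Ctns KO and 0.918 ± 0.0868 in Ctns WT kidneys (SD, n = 4 each; log2 fold change -1.23, adjusted p = 0.00039 by limma), and the groups did not overlap. In rats CTNS was 19.1 ± 1.86 and 22.3 ± 2.98 CPM (read counts scaled by library total and TMM factor; SD, n = 8 each; adjusted p = 0.0511 by edgeR) and the groups overlapped. Its log2 fold change was -0.12 in rats 17 to 24 (adjusted p = 0.599 by edgeR). In rats 25 to 32 it was -0.32 (adjusted p = 0.0111 by edgeR), with overlap in both ranges. The genotype of the rats thus rests on the labels. XIST, a transcript of female cells, was at 0.0517 in the Ctns KO mouse numbered 3, against 19.3 to 22.5 in the other 7 mice. The other 4 sex-linked genes read, all of the Y chromosome, had no read in any mouse of either genotype. XIST alone thus goes against the reporting summary's statement that the mice were female, which the methods limit to cell cultures and mechanistic studies. The sex of mouse 3 was not settled. Without that mouse 0 members passed the mouse test by limma. These are bulk libraries: fewer cells of a type and less RNA per cell cannot be told apart.

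EGF was by far the most abundant member in the mouse. Per length, EGF stood at 302 ± 47.9 RPKM in Ctns WT kidneys (SD, n = 4, over the exons of GENCODE gene models on GRCm38), followed by ERBB3 at 23.6 ± 6.42 and ERBB2 at 22.1 ± 2.76, which overlapped between mice. EGFR stood at 7.55 ± 0.632 and ADAM17 at 5.60 ± 0.371 RPKM. HBEGF, at 2.46 ± 0.261, lay above BTC at 1.79 ± 0.381 and TGFA at 1.096 ± 0.228 RPKM, with overlap between HBEGF and BTC. AREG had 7 reads in all over the 8 mice and EREG had 0 of 239760267 reads, which with a floor of 3 reads allows up to 0.0675 CPM in the deepest library and 0.155 CPM in the shallowest; this covers counting error only. No fold is given for these 2 genes in the mouse.

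No member passed the test between Ctns KO and Ctns WT mice (0 of 10 at an adjusted p under 0.05 by limma, against 4.71% of all symbols, 3.81% higher and 0.904% lower). HBEGF, AREG and ADAM17 (3 of 10) had an unadjusted p under 0.05, and edgeR and DESeq2 on the recovered reads also called 0. Over the 8 members with more than 3 reads in a mouse the median log2 fold change was -0.0070, beside 0.00025 over all symbols. Mouse changes are differences of log2(value + 0.1), which understates the change of low genes.

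EGF had scaled values of 71.9, 75.2, 77.4 and 69.9 in Ctns KO mice 3, 5, 6 and 8, and of 59.4, 75.03, 68.0 and 87.7 in Ctns WT mice 1, 2, 4 and 7. All Ctns KO values lay inside the Ctns WT range. The log2 fold change was 0.03 (95% interval -0.24 to 0.30; adjusted p = 0.963 by limma). Set beside 13 listed markers of the thick ascending limb and distal convoluted tubule, the segments that make it, EGF exceeded their mean log2 level by 3.96 ± 0.0554 in Ctns KO and 4.01 ± 0.169 in Ctns WT mice (SD, n = 4 each). That difference of -0.04 was not beyond the spread (two-sided exact permutation p = 0.629, where the smallest p possible is 0.0286), and its sign turned with thick ascending limb markers alone (0.12) or without Ctns WT mouse 7 (0.01).

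HBEGF, the heparin-binding ligand, had scaled values of 0.317, 0.343, 0.341 and 0.253 in Ctns KO and 0.219, 0.289, 0.258 and 0.249 in Ctns WT mice, so 3 of the 4 Ctns KO mice lay above every Ctns WT mouse. Its log2 fold change was 0.22 (standard error (SE) 0.09, adjusted p = 0.237 by limma). TGFA had values of 0.169, 0.178, 0.195 and 0.184 in Ctns KO and 0.145, 0.130, 0.133 and 0.198 in Ctns WT mice. Ctns WT mouse 7 was the highest of all 8 for TGFA; the log2 fold change of 0.17 (adjusted p = 0.354 by limma) became 0.25 (adjusted p = 0.0394) without it. BTC, betacellulin, was highest in the same mouse, with values of 0.144, 0.164, 0.155 and 0.227 in Ctns WT and 0.136, 0.146, 0.143 and 0.134 in Ctns KO mice (log2 fold change -0.18, adjusted p = 0.352 by limma).

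ADAM17, the main sheddase of TGFA, AREG and HBEGF, was the one member whose mouse groups did not overlap. Its scaled values were 0.931, 0.958, 0.987 and 0.968 in Ctns KO and 0.797, 0.830, 0.913 and 0.865 in Ctns WT mice. The log2 fold change of 0.16 (SE 0.04, adjusted p = 0.0866 by limma) missed the threshold, and 7.66% of all mouse symbols had Ctns KO values above every Ctns WT value. When 1 mouse was left out the adjusted p ran from 0.0623 to 0.221.

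The 3 receptors overlapped between genotypes in the mouse. EGFR was 1.59, 1.89, 1.58 and 1.98 in Ctns KO and 1.65, 1.99, 1.91 and 1.72 in Ctns WT mice (log2 fold change -0.05, adjusted p = 0.9 by limma). ERBB2 was 2.12, 2.38, 2.12 and 2.22 in Ctns KO and 2.42, 2.92, 2.13 and 2.32 in Ctns WT mice (log2 fold change -0.13, adjusted p = 0.529 by limma). ERBB3 was 2.51, 3.04, 2.63 and 2.86 in Ctns KO and 3.01, 4.14, 2.04 and 2.90 in Ctns WT mice, where mouse 2 stood highest and mouse 4 lowest (log2 fold change -0.09, 95% interval -0.53 to 0.35, adjusted p = 0.922 by limma). In the plot of mouse values, ADAM17 alone has a gap between the genotypes.

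**Figure D1:**
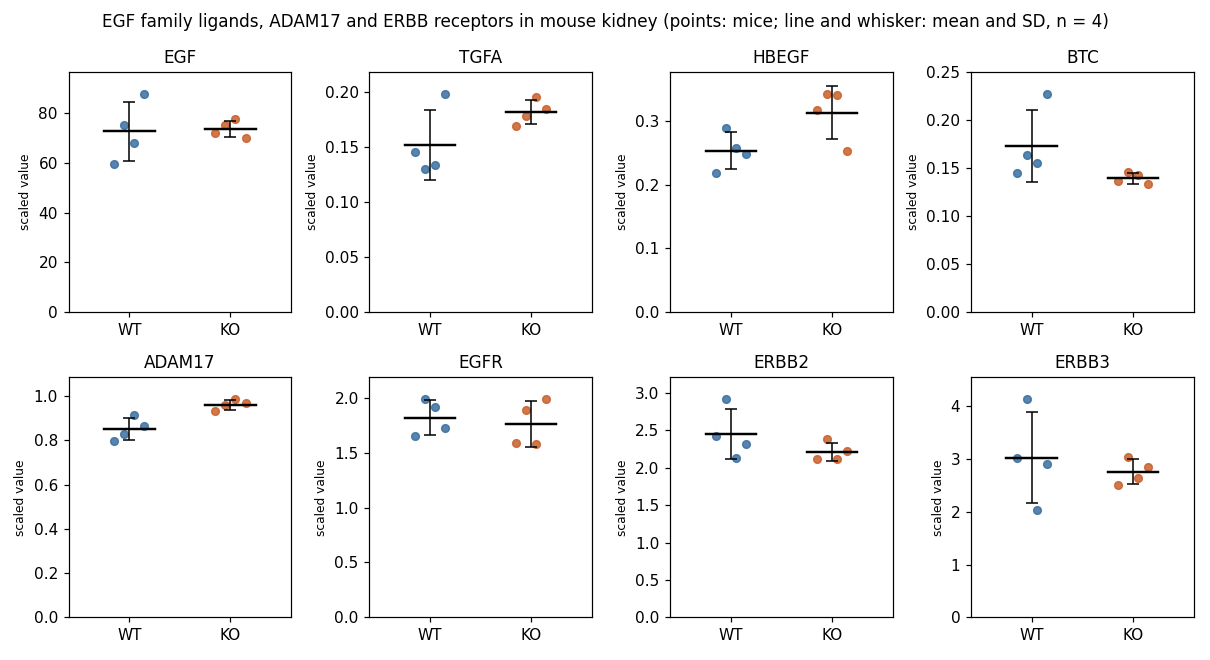
Scaled values (y axis, each from 0; 1 is the 75th percentile of the library) of 8 members in 4 Ctns WT (blue) and 4 Ctns KO (orange) mice; points are mice, lines means and whiskers SD. Only the ADAM17 groups do not overlap, and the EGF means are 73.6 and 72.6 in Ctns KO and Ctns WT mice.

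In rats, 3 of the 7 members tested differed between genotypes (27.5% of all symbols did by edgeR): TGFA and AREG rose and ERBB3 fell in Ctns KO kidneys. Symbols called higher made up 15.2% and symbols called lower 12.3%. The median log2 fold change over the 7 members was -0.31, beside -0.02 over all symbols. EREG had 2 reads in all, 1 each in Ctns KO rats 26 and 30, and did not pass the filter on low counts, so no fold is given.

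TGFA ran from 1.58 to 3.13 CPM in Ctns KO rats (median 2.59) and from 0.914 to 1.88 CPM in Ctns WT rats (median 1.47; n = 8 each, 31 to 102 reads per rat). Of the 8 Ctns KO rats, 7 lay above every Ctns WT rat. The log2 fold change was 0.77 (SE 0.17, adjusted p = 0.00326 by edgeR).

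AREG, amphiregulin, ran from 0.644 to 1.77 CPM in Ctns KO (median 1.13) and from 0.442 to 0.964 CPM in Ctns WT rats (median 0.714), with 13 to 52 reads per rat. The 6 highest values were all of Ctns KO rats. Its log2 fold change was 0.81 (SE 0.23, adjusted p = 0.0141 by edgeR), the largest among the 7 members over all rats.

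HBEGF ran from 3.70 to 5.18 CPM in Ctns KO (median 4.22) and from 3.02 to 4.25 CPM in Ctns WT rats (median 3.80), with overlap (log2 fold change 0.22, adjusted p = 0.113 by edgeR). BTC ran from 2.25 to 5.03 CPM in Ctns KO (median 3.97) and from 3.18 to 6.204 CPM in Ctns WT rats (median 4.60; log2 fold change -0.31, adjusted p = 0.171 by edgeR). Neither ligand passed the test over all rats.

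ERBB3, the neuregulin receptor, ran from 64.7 to 110 CPM in Ctns KO (median 87.8) and from 114 to 182 CPM in Ctns WT rats (median 132), with 1598 to 7039 reads per rat. After TMM, all 8 Ctns KO rats lay below all 8 Ctns WT rats. Of all symbols, 1.95% had Ctns KO values wholly below and 3.89% wholly above. By library totals alone the ERBB3 groups overlapped. Ctns KO rat 24 (3573 of 31149936 reads) then lay above Ctns WT rats 17 (2848 of 25002089) and 31 (3432 of 30327772). The ERBB3 log2 fold change was -0.66 (SE 0.12, adjusted p = 0.00063 by edgeR), and the adjusted p ran from 0.00037 to 0.0022 when 1 rat was left out.

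EGFR ran from 6.35 to 12.1 CPM in Ctns KO (median 9.28) and from 8.36 to 17.4 CPM in Ctns WT rats (median 13.1), with overlap. Its log2 fold change of -0.43 (adjusted p = 0.0696 by edgeR) passed the threshold with DESeq2 (-0.43, adjusted p = 0.049) and without Ctns KO rat 22 (0.0474) or 24 (0.0447), and without Ctns WT rat 17 (0.0354) or 21 (0.0351). ERBB2 ran from 5.42 to 13.0 CPM in Ctns KO (median 9.42) and from 8.89 to 14.9 CPM in Ctns WT rats (median 12.5; log2 fold change -0.37, adjusted p = 0.0838 by edgeR). Only 7 of its 16 values were whole reads before rounding, so ERBB2 is uncertain to that extent. With number range as a covariate its change was -0.40 (adjusted p = 0.00516), and without Ctns KO rat 22 it was -0.45 (adjusted p = 0.0333).

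The rats were then read within each number range. The values of 7 members split by genotype and range are shown in the plot of rat members.

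**Figure D2:**
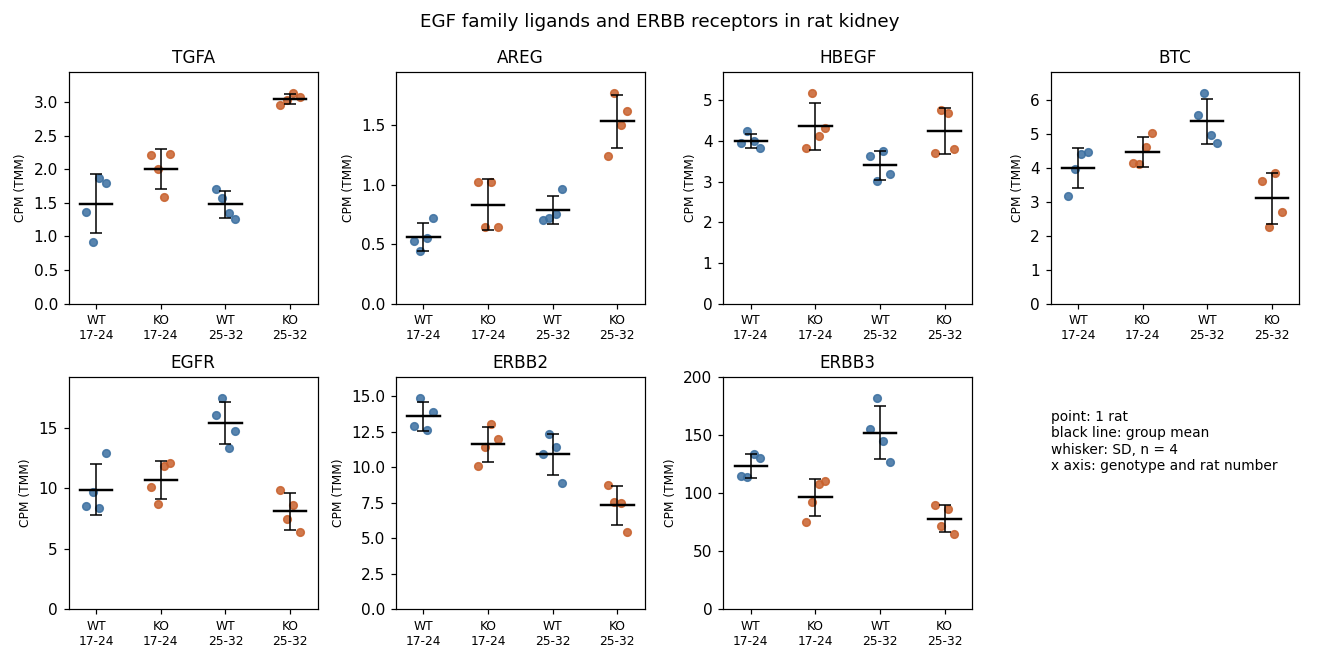
CPM after TMM scaling (y axis, each from 0) of 7 members in rats, by genotype (Ctns WT blue, Ctns KO orange) and number range; points are rats, lines means and whiskers SD (n = 4). At this scaling, in rats 25 to 32, TGFA and AREG of Ctns KO lie above, and BTC, EGFR, ERBB2 and ERBB3 below, all Ctns WT values of that range.

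In rats 17 to 24, 0 of 7 members passed the test by edgeR (6.96% of all symbols did, 5.05% higher and 1.91% lower), and DESeq2 called 0 as well; 3 of 7, namely TGFA, AREG and ERBB3, had an unadjusted p under 0.05. Their median log2 fold change was 0.12, beside -0.01 over all symbols. ERBB3 was 75.4, 92.4, 107 and 110 CPM in Ctns KO rats 18, 20, 22 and 24 and 115, 114, 134 and 130 CPM in Ctns WT rats 17, 19, 21 and 23. After TMM these groups did not overlap (5.79% of all symbols had Ctns KO values wholly below and 7.93% wholly above), although the log2 fold change of -0.36 (SE 0.13, adjusted p = 0.122 by edgeR) missed the threshold. By library totals alone Ctns KO rat 24 lay above Ctns WT rat 17, and the ERBB3 groups overlapped. TGFA was 2.204, 1.999, 1.58 and 2.22 CPM in Ctns KO and 1.37, 0.914, 1.88 and 1.79 CPM in Ctns WT rats of this range (log2 fold change 0.43, adjusted p = 0.234 by edgeR). AREG was 1.02, 0.644, 1.02 and 0.648 CPM in Ctns KO and 0.523, 0.442, 0.553 and 0.722 CPM in Ctns WT rats (log2 fold change 0.57, adjusted p = 0.187 by edgeR). Both ligands overlapped between genotypes, as did HBEGF, BTC, EGFR and ERBB2, whose log2 fold changes lay between -0.23 and 0.15.

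In rats 25 to 32, 6 of 7 members passed the test by edgeR, where 50% of all symbols did. TGFA and AREG were higher in Ctns KO kidneys (23.7% of symbols were called higher), and BTC, EGFR, ERBB2 and ERBB3 were lower (26.2% called lower). After TMM, all 6 had groups that did not overlap, as had 20.3% of all symbols with Ctns KO wholly above and 19.7% with Ctns KO wholly below. The median log2 fold change over the 7 members was -0.58, beside -0.01 over all symbols.

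TGFA was 2.95, 3.03, 3.13 and 3.08 CPM in Ctns KO rats 26, 28, 30 and 32 and 1.71, 1.58, 1.36 and 1.26 CPM in Ctns WT rats 25, 27, 29 and 31. The Ctns KO values were close together and all above 2.9 CPM, against no Ctns WT value over 1.8. The log2 fold change was 1.03 (SE 0.19, adjusted p = 0.00029 by edgeR).

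AREG was 1.244, 1.77, 1.505 and 1.62 CPM in Ctns KO and 0.707, 0.724, 0.753 and 0.964 CPM in Ctns WT rats of this range. Its log2 fold change was 0.96 (SE 0.22, adjusted p = 0.00153 by edgeR). HBEGF was 3.70, 4.77, 4.70 and 3.80 CPM in Ctns KO and 3.64, 3.02, 3.77 and 3.19 CPM in Ctns WT rats. Its groups overlapped at 1 Ctns KO rat, number 26, and the log2 fold change of 0.32 had an adjusted p of 0.0515 by edgeR. That call was gained with DESeq2 (0.0485), with DESeq2's size factors in edgeR (0.047), with library totals (0.00798) and without Ctns KO rat 18, 20, 26 or 32 or Ctns WT rat 25 or 29 (lowest adjusted p 0.0317).

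BTC was 3.61, 2.25, 3.84 and 2.71 CPM in Ctns KO and 5.54, 6.204, 4.97 and 4.74 CPM in Ctns WT rats 25 to 32 (log2 fold change -0.79, SE 0.16, adjusted p = 0.00072 by edgeR). EGFR was 9.86, 7.46, 8.63 and 6.35 CPM in Ctns KO and 16.03, 17.4, 13.3 and 14.7 CPM in Ctns WT rats (log2 fold change -0.93, SE 0.16, adjusted p = 0.00011 by edgeR). Every Ctns KO rat of the range had less than 10 CPM of EGFR and every Ctns WT rat more than 13.

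ERBB2 was 8.77, 7.56, 7.46 and 5.42 CPM in Ctns KO and 10.9, 12.3, 11.5 and 8.89 CPM in Ctns WT rats 25 to 32 (log2 fold change -0.58, SE 0.13, adjusted p = 0.00162 by edgeR). The gap between the groups was narrow, between 8.77 CPM in Ctns KO rat 26 and 8.89 CPM in Ctns WT rat 31. ERBB3 was 89.4, 71.6, 86.1 and 64.7 CPM in Ctns KO and 156, 182, 145 and 127 CPM in Ctns WT rats (log2 fold change -0.97, SE 0.13, adjusted p = 1.7e-05 by edgeR), with a wide gap. Leaving out any 1 rat ended none of the 6 calls; the highest adjusted p among them was then 0.00786, for ERBB2.

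Scaling matters in this range. The median of all symbols between Ctns KO and Ctns WT rats 25 to 32 was 0.15 on the log2 scale by library totals and -0.01 after TMM. With library totals TGFA was at 1.20, AREG at 1.12, BTC at -0.62, EGFR at -0.76, ERBB2 at -0.41 and ERBB3 at -0.81, each in the same direction and past the threshold (highest adjusted p 0.0283, for ERBB2, by edgeR). At that scaling the ERBB2 groups overlapped.

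**Figure D3:**
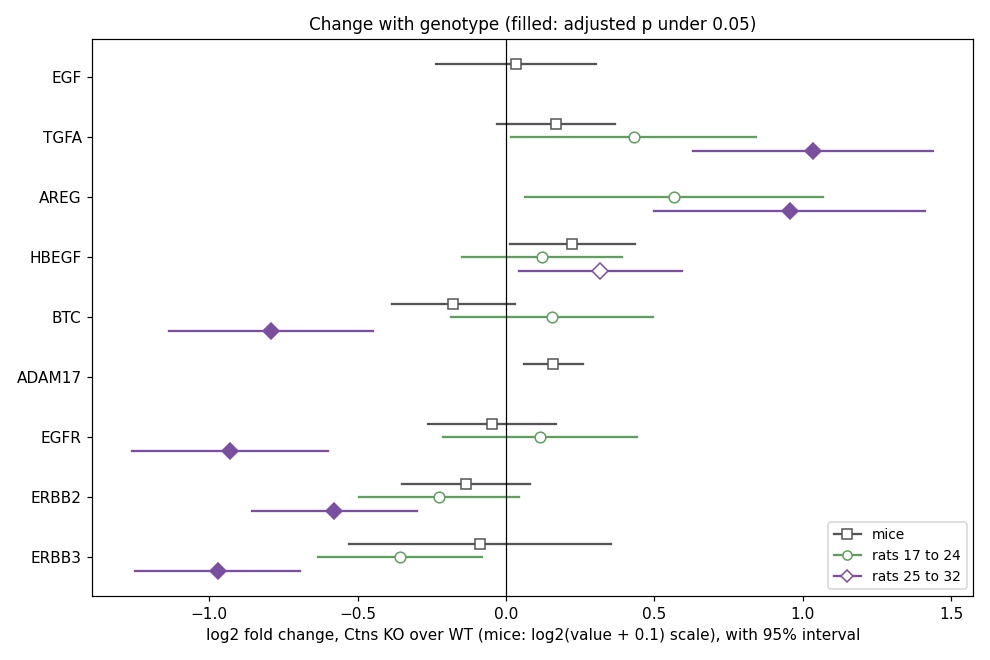
Log2 fold change of Ctns KO over Ctns WT (x axis, with 95% interval) for members in mice (squares, on the log2(value + 0.1) scale), rats 17 to 24 (circles) and rats 25 to 32 (diamonds); filled symbols have an adjusted p under 0.05. The filled symbols are 6 members in rats 25 to 32; EGF and ADAM17 are shown for mice alone and AREG for rats alone.

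The change with genotype was compared between the 2 ranges by the interaction term of the same edgeR fit. It passed for 3 of 7 members, BTC, EGFR and ERBB3 (14.7% of all symbols passed, 7.64% with the more negative and 7.1% with the more positive change in rats 25 to 32). The difference in log2 fold change was -0.95 (SE 0.23, adjusted p = 0.0123) for BTC, -1.04 (SE 0.22, adjusted p = 0.00586) for EGFR and -0.61 (SE 0.18, adjusted p = 0.0355) for ERBB3. The ERBB3 call was lost with library totals (-0.48, adjusted p = 0.0983) and without Ctns KO rat 22, 24, 28 or 32 or Ctns WT rat 17, 19, 25 or 27, with adjusted p-values of up to 0.0785. TGFA (0.61, adjusted p = 0.138; 0.0409 without Ctns WT rat 19), AREG (0.39, adjusted p = 0.425), ERBB2 (-0.35, adjusted p = 0.194) and HBEGF (0.20, adjusted p = 0.483) did not pass, so their changes are not shown to differ between the ranges.

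Levels within 1 genotype show where the ranges part. These contrasts use the same rats as those above. Among Ctns WT rats, 1 of 7 members differed between ranges by edgeR (21.1% of all symbols did, 11.7% higher and 9.43% lower in the second range): EGFR rose from 9.85 ± 2.11 CPM in rats 17 to 24 to 15.4 ± 1.77 CPM in rats 25 to 32 (SD, n = 4 each; log2 difference 0.64, adjusted p = 0.00646). BTC (0.42, adjusted p = 0.0705; 0.0455 without Ctns KO rat 28) and ERBB2 (-0.31, adjusted p = 0.0919; 0.0426 without Ctns KO rat 32) did not pass.

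Among Ctns KO rats, 5 of 7 members differed between ranges by edgeR (47% of all symbols did; 24.2% higher and 22.8% lower). TGFA rose from 2.003 ± 0.297 to 3.05 ± 0.075 CPM (log2 difference 0.60, adjusted p = 0.0146) and AREG from 0.834 ± 0.217 to 1.54 ± 0.222 CPM (0.87, adjusted p = 0.00358; SD, n = 4 each). ERBB2 fell from 11.6 ± 1.237 to 7.31 ± 1.39 CPM (-0.67, adjusted p = 0.00083), BTC from 4.47 ± 0.438 to 3.10 ± 0.748 CPM (-0.53, adjusted p = 0.0155) and EGFR from 10.7 ± 1.58 to 8.08 ± 1.51 CPM (-0.40, adjusted p = 0.0441). The EGFR call was lost with library totals (adjusted p = 0.0691) and without Ctns KO rat 18, 22, 24, 28 or 32 or Ctns WT rat 19 or 25 (up to 0.128). TGFA was lost without Ctns KO rat 22 (0.052) and BTC without Ctns KO rat 28 (0.0594). ERBB3, at -0.31 (adjusted p = 0.0626), passed without Ctns KO rat 18, 26 or 30 or Ctns WT rat 27 or 31 (lowest 0.0139).

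Between species, 0 of the 8 members in both tables had a change with genotype that differed by limma (3.27% of symbols did, 1.58% with the higher and 1.69% with the lower change in rats), and edgeR on the reads of both species called 0 as well; AREG and ERBB3 (2 of 8) had an unadjusted p under 0.05. The nearest with reads in both species was ERBB3, with a difference of -0.52 (rat minus mouse; 95% interval -0.96 to -0.07; adjusted p = 0.209). For EGFR it was -0.21 (95% interval -0.60 to 0.18) and for TGFA 0.06 (95% interval -0.13 to 0.26) on the log2(value + 0.1) scale. That scale compresses TGFA, whose scaled values in rats are below the 0.1 added: edgeR on reads gave a TGFA difference of 0.55 (adjusted p = 0.283), and with 1 added it was -0.0051 (adjusted p = 0.938 by limma).

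Of other listed genes of the family, 1 of 6 tested passed in mice and 1 of 3 tested in rats, beside 4.71% and 27.5% of all symbols. In both species it was NRG1, the neuregulin ligand of ERBB3 and ERBB4, higher in Ctns KO kidneys. In mice NRG1 had scaled values of 0.239, 0.311, 0.215 and 0.329 in Ctns KO and 0.0937, 0.136, 0.129 and 0.139 in Ctns WT kidneys, without overlap (log2 fold change 0.73, SE 0.12, adjusted p = 0.0167 by limma). In rats its log2 fold change was 0.59 (adjusted p = 0.0218 by edgeR). NRG1 was 11.2, 17.3, 16.4 and 15.3 CPM in Ctns KO against 10.3, 9.17, 7.53 and 10.3 CPM in Ctns WT rats 17 to 24 (log2 fold change 0.69, adjusted p = 0.00635). In rats 25 to 32 it was 21.8, 20.7, 23.7 and 20.4 CPM against 17.9, 16.1, 15.2 and 11.4 CPM (0.51, adjusted p = 0.00624). The genotypes did not overlap in either range, although Ctns WT rats 25 to 32 reached the levels of Ctns KO rats 17 to 24. ERBB4, the fourth receptor of the family, fell in rats 25 to 32 (log2 fold change -1.01, adjusted p = 0.00807 by edgeR) with overlap, from 9.07 ± 4.13 to 4.52 ± 1.53 CPM (SD, n = 4 each).

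Of the sheddases and their regulators, 2 of 9 passed in mice and 5 of 8 in rats, beside 4.71% and 27.5% of all symbols; their median log2 fold changes were 0.02 and -0.18. ADAM8, a metalloprotease of leukocytes, was higher in Ctns KO kidneys of both species, at 0.0358 ± 0.0022 against 0.0239 ± 0.0028 scaled units in mice (SD, n = 4; log2 fold change 0.13, adjusted p = 0.014 by limma) and by 1.74 on the log2 scale in rats (adjusted p = 0.00039 by edgeR). ADAM8 was 3.27, 3.92, 3.19 and 2.51 CPM in Ctns KO and 0.484, 0.620, 0.716 and 0.482 CPM in Ctns WT rats 25 to 32, far apart. RHBDF2, the rhomboid-like partner that carries ADAM17 to the surface, was higher in rats (log2 fold change 0.58, adjusted p = 0.00063 by edgeR, without overlap), at 15.9, 17.6, 16.1 and 15.2 CPM in Ctns KO and 9.19, 9.05, 9.12 and 10.01 CPM in Ctns WT rats 25 to 32. TIMP3, the tissue inhibitor of ADAM17, fell by 0.37 on the log2 scale in mice (adjusted p = 0.0193 by limma, without overlap) and by 0.50 in rats (adjusted p = 0.0028 by edgeR, with overlap). ADAM15 rose and FURIN fell in rats (log2 fold changes 0.38 and -0.32).

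Of the relay from receptor to ERK and PI3K, 1 of 24 genes passed in mice, a share near the 4.71% of all symbols called. It was AKT2, at -0.17 on the log2 scale (adjusted p = 0.0174 by limma). In rats 3 of 20 rose (SHC1, AKT1 and STAT3) and 3 fell (ARAF, MAP2K2 and PIK3CB), a share near the 27.5% of all symbols called. STAT3 had the largest change, with 0.49 (SE 0.06, adjusted p = 4.8e-05 by edgeR, without overlap), followed by PIK3CB, with -0.42 (adjusted p = 0.0237). Within rats 25 to 32, 4 of 20 rose and 9 fell, with a median log2 fold change of -0.13, where 23.7% of all symbols were called higher and 26.2% lower.

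Of the listed feedback inhibitors, 1 of 16 passed in mice and 4 of 14 in rats (2 higher and 2 lower). These shares were near the 4.71% and 27.5% of all symbols called. SOCS3, a cytokine-induced suppressor, was higher in mice (log2 fold change 0.56, adjusted p = 0.00828 by limma) and in rats (1.79, adjusted p = 0.0002 by edgeR), without overlap in either. LRIG1, which lowers ERBB receptors at the surface, fell by 0.52 on the log2 scale in rats (adjusted p = 0.00242 by edgeR, with overlap). Its relative LRIG3 fell by 0.35 (adjusted p = 0.00574 by edgeR, with overlap). SPRY2 rose slightly in rats (log2 fold change 0.15). Among rats 25 to 32, 1 of the 14 tested rose and 5 fell, a share near the 50% of symbols called, with LRIG1 going to 9.71 ± 1.34 from 16.6 ± 1.93 CPM (SD, n = 4 each).

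Of the ERK-responsive transcription factors and targets, 5 of 13 were called higher in mice and 8 of 11 in rats, beside 3.81% and 15.2% of all symbols. The other 8 genes in mice and 3 in rats did not pass, none was called lower, and the median log2 fold changes were 0.32 and 0.59, beside 0.00025 and -0.02 over all symbols. In mice the called genes were FOSB, FOSL1, PHLDA1, CCND1 and PLAUR, led by CCND1, the G1 cyclin D1, with 0.66 (adjusted p = 0.00643 by limma), PLAUR, the urokinase receptor, with 0.40 (adjusted p = 0.02) and PHLDA1 with 0.38 (adjusted p = 0.04). In rats the largest were FOSB, at 2.68 with overlap (adjusted p = 0.00056 by edgeR), MYC, at 1.91 (adjusted p = 6.1e-06), and FOS, at 1.85 (adjusted p = 3.3e-05), the latter pair without overlap. The same list had 6 of 12 called higher in rats 17 to 24 and 9 of 12 in rats 25 to 32, beside 5.05% and 23.7% of all symbols. MYC rose from 5.19 ± 1.33 to 13.8 ± 2.92 CPM in the first range and from 5.47 ± 0.861 to 26.3 ± 2.04 CPM in the second (SD, n = 4 each). These genes answer many signals besides EGFR.

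**Figure D4:**
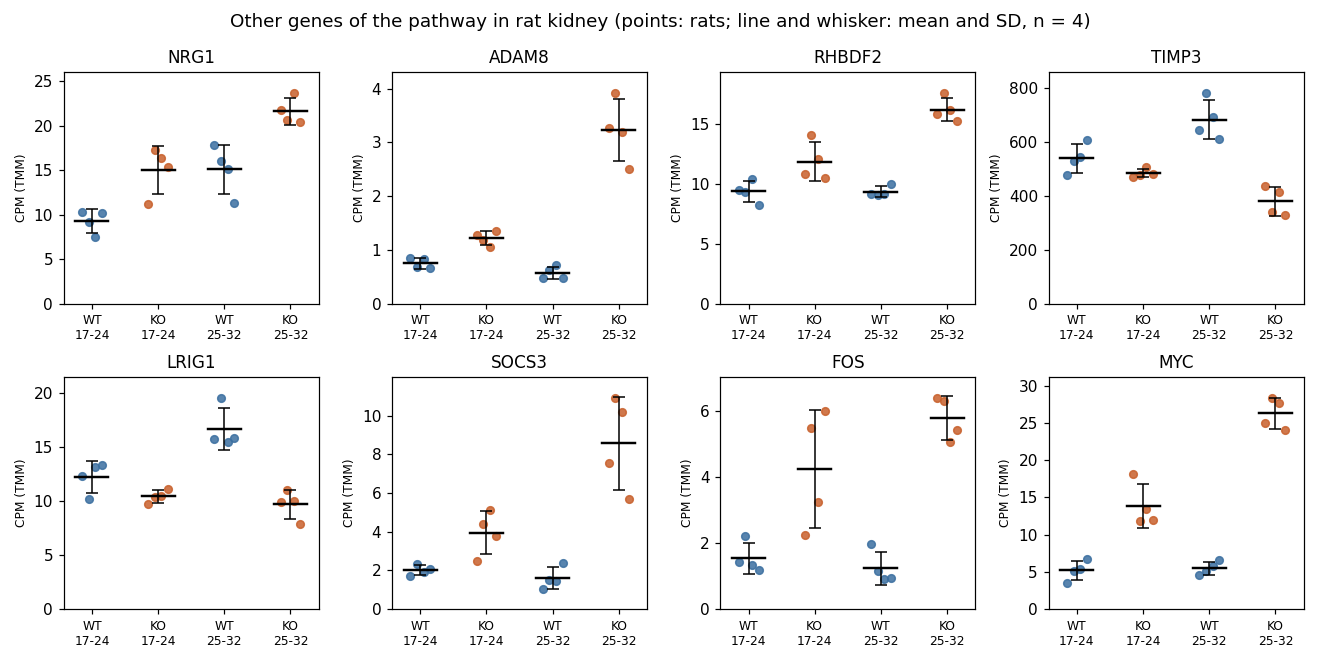
CPM after TMM scaling (y axis, each from 0) of 8 other genes of the pathway in rats, by genotype (Ctns WT blue, Ctns KO orange) and number range; points are rats, lines means and whiskers SD (n = 4). In rats 25 to 32, NRG1, ADAM8, RHBDF2, SOCS3, FOS and MYC of Ctns KO lie above, and TIMP3 and LRIG1 below, all Ctns WT values of that range.

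Genes of magnesium handling in the distal tubule, which EGF is known to stimulate through TRPM6, did not pass in mice by limma. There 0 of 10 passed, beside 4.71% of all symbols, and 2 of 10 had an unadjusted p under 0.05. In rats 1 of 6 passed, beside 27.5% of all symbols. It was SLC41A3, at 0.55 on the log2 scale (adjusted p = 0.0374 by edgeR, with overlap). For rats 25 to 32, 3 of 6 rose (SLC41A1, SLC41A3 and CLDN19) and 1 fell (CNNM2), where 50% of all symbols were called. TRPM6 itself was at 0.39 in mice (adjusted p = 0.245 by limma) and at -0.26 in rats 25 to 32 (adjusted p = 0.0673 by edgeR).

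**Figure D5:**
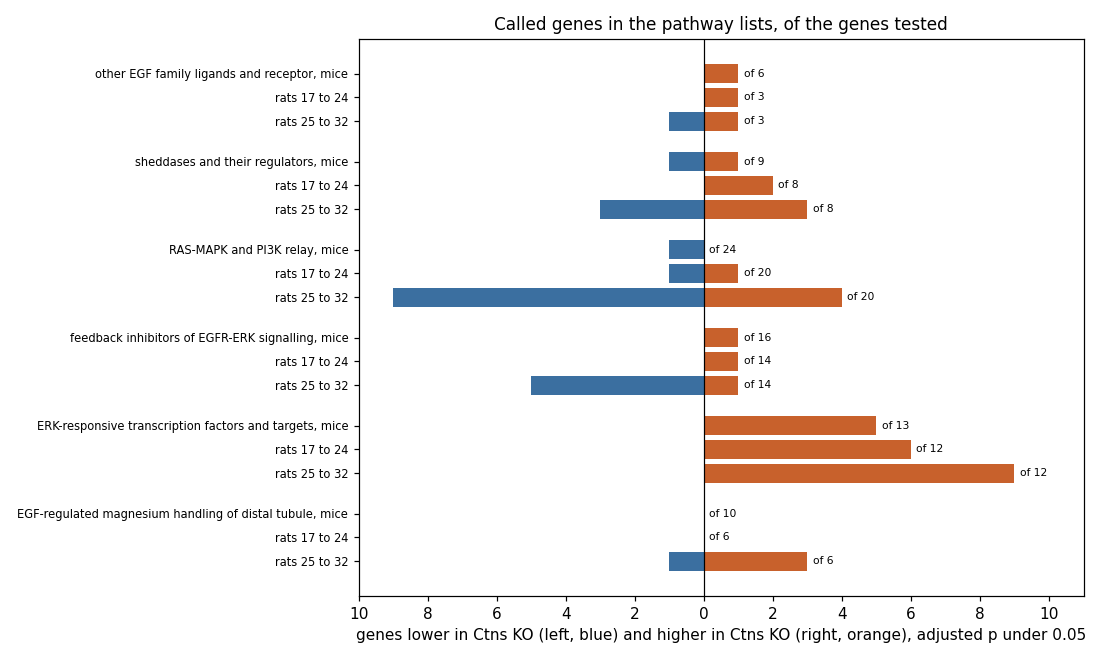
Number of genes (x axis) called lower (left, blue) and higher (right, orange) in Ctns KO at an adjusted p under 0.05, for 6 lists in mice, rats 17 to 24 and rats 25 to 32; the number tested stands beside each bar. ERK-responsive genes were called higher in all 3 sets of animals (5 of 13, 6 of 12 and 9 of 12).

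Markers of other cells moved with genotype beside these results, and their part in them was not tested. Of all symbols, 3.81% were called higher and 0.904% lower in mice, and 15.2% and 12.3% in rats. In rats 25 to 32 the shares were 23.7% and 26.2%. Macrophage markers were higher for 9 of 10 genes in both species; their summed level was 4.34 to 5.17 against 2.89 to 3.04 scaled units in Ctns KO and Ctns WT mice, and 377 to 539 against 181 to 227 CPM in rats 25 to 32. Lymphocyte markers were called for 0 of 9 in mice by limma (1 of 9, CD3D, at an unadjusted p under 0.05; median log2 fold change 0.08) and were higher for 6 of 6 in rats, with sums of 53.7 to 62.4 against 30.6 to 36.2 CPM in rats 25 to 32. Fibroblast and pericyte markers were higher for 4 of 9 in mice and 6 of 7 in rats (475 to 534 against 258 to 298 CPM in rats 25 to 32). Tubular injury markers were higher for 5 of 10 in mice and 8 of 9 in rats (4542 to 6618 against 703 to 799.9 CPM in rats 25 to 32). Proximal tubule markers were lower for 1 of 10 in mice and 5 of 8 in rats (6806 to 8346 against 13240 to 15160 CPM in rats 25 to 32). No listed marker of these 5 groups was at 0 in every rat or mouse of a group. In rats 17 to 24 the summed levels parted less, with 198 to 222 against 122 to 164 CPM for macrophages and 9019 to 9433 against 10480 to 12570 CPM for the proximal tubule. Thick ascending limb markers had 1 of 5 higher (UMOD) and 1 lower (CLDN10) in rats. Podocyte and endothelial markers fell for 3 of 5 and 3 of 6 in rats 25 to 32, beside 26.2% of all symbols called lower.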

How the data were processed

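Kidney RNA-seq values of 8 mice and 16 rats were used, grouped by the genotype and animal number in the labels. The submitters' processing notes name bcl2fastq 2.20, STAR 2.7.3, DESeq2 1.24.0, R 3.6.1 and the builds mm10 and rn5, with no roles; the counter and annotation are not given in the sources used here. For the mouse, the authors deposited a scaled signal per symbol, which the values show to be reads plus 0.5 over the 75th percentile plus 0.5; 99% of values gave whole reads within 0.01. The rat values are estimated counts per symbol as deposited, each with a constant added that was taken off before rounding (97.7% were whole). Symbols are in human style, so related rodent genes may share 1.

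Limma 3.58.1 with a trended, robust prior was run for the mouse on log2(value + 0.1) without a filter, and rat genes with edgeR 4.0.16 (quasi-likelihood, TMM, its filter on low counts; 11584 symbols for all rats, 11839 for a fit with genotype and number range as 4 cells) in R 4.3.3. Benjamini-Hochberg adjustment ran over all symbols tested, and calls were made under 0.05. Species were compared with limma on values of both, over 14264 symbols. The EGF ratio was tested by exact permutation in SciPy 1.17.1. The members, gene lists and tests were chosen with earlier results of these data known. All members were named, and in each pathway list the genes past the threshold with the 3 largest changes in a species; other genes named, such as TRPM6, ERBB4, UMOD and ADAM15, were chosen after their values were seen. A part of that rule, on genes whose pattern follows EGF over the rats, and the EGF ratio in rats could not be applied, since EGF was not analysed in the rat. No 2 libraries of a group agreed within sampling noise (chi-square over its degrees of freedom at least 12.7 in mice and 8.85 in rats). Replicates are separate animals. Depth (mouse libraries 19309449 to 44449859 reads, rat libraries 24684097 to 40629873) bounds counting error only; intervals and floors cover no other error.

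With 200 genes of simulated data changed 4-fold, limma recovered 97% in mice (16 false calls among 17376 symbols) and edgeR 100% in rats (4 among 11634) and in rats 25 to 32 (15 among 11824); the interaction between ranges gave 99% (9 among 11824). The species test recovered 99.5% of 194 with 49 false calls among 14264 symbols, more than the method should give. The changed genes were drawn only from symbols with many reads. Their recovery therefore does not cover genes with few reads, such as AREG in rats, or changes under 4-fold. Alternatives were other pseudocounts, filters, DESeq2 1.42.0, its size factors, limma-voom, recovered mouse reads in count tests, number range as a covariate, fits of 8 rats alone and leaving out each animal; reads rounded down and library totals without TMM were added after seeing the data.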

Additional observations from a re-analysis of the deposited data

Results flagged for a closer look

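For 3 rat members the interaction between genotype and number range passed the threshold by edgeR. The difference in log2 fold change was -0.95 for BTC (adjusted p = 0.0123), with a change of 0.15 in the first range and -0.79 in the second. For EGFR it was -1.04 (adjusted p = 0.00586), with 0.11 and -0.93. For ERBB3 it was -0.61 (adjusted p = 0.0355), with -0.36 and -0.97, and this call was lost with library totals (-0.48, adjusted p = 0.0983) and on leaving out Ctns KO rat 22, 24, 28 or 32 or Ctns WT rat 17, 19, 25 or 27 (adjusted p up to 0.0785). Of 58 groups of member values looked at for a single animal far from the rest, none held one; chance alone would flag about 1 group in 20.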

How the results depend on the processing

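No paired analysis was possible because no source used here says which Ctns KO and Ctns WT animals were littermates. Any effect of litter was not tested. The members called in rats 25 to 32 kept their direction and side of the threshold under every alternative, and so did TGFA, AREG and ERBB3 over all rats. With DESeq2, 1520 mouse symbols were called in place of 819 (1198 with edgeR), and 2 members differed between the ranges in Ctns WT rats in place of 1, as with library totals. Library totals gave 2656 symbols for the interaction in place of 1745, and the species test called 92 with a filter on low values and 307 with edgeR in place of 467. Some changes that passed no test turned in sign: EGF in mice with DESeq2 (-0.00197), the species difference of TGFA (-0.00512) and ERBB2 (0.0354) with 1 added, and the EGF ratio with thick ascending limb markers alone (0.116). Leaving out 1 animal, the symbols called ran from 412 to 790 in mice (443 without Ctns KO 5, 412 without Ctns KO 6, 453 without Ctns WT 4), from 503 to 890 in rats 17 to 24 (543 without Ctns KO 24, 503 without Ctns WT 21), from 1010 to 2392 for the interaction (1135 without Ctns KO 22, 1010 without Ctns KO 28, 1163 without Ctns WT 27) and from 305 to 591 between species (305 without mouse Ctns KO 6). Members called ran from 0 to 1 in mice (1 without Ctns WT 7), from 3 to 5 over all rats (5 without Ctns KO 22), from 1 to 2 between ranges in Ctns WT (2 without Ctns KO 28 or 32) and from 3 to 6 in Ctns KO rats (3 without Ctns KO 22 or 28). Without 1 animal EGF in mice ran from -0.0569 to 0.13, ERBB3 in mice from -0.256 to 0.0726, the EGF ratio from -0.121 to 0.0113, the species difference of TGFA from -0.0206 to 0.105 and of BTC from -0.0423 to 0.0982, HBEGF between ranges in Ctns KO rats from -0.112 to 0.0498 and TGFA in Ctns WT rats from -0.189 to 0.129. The cause of these shifts was not tested. Depth limits AREG and EREG in mice and EREG in rats, where no change was detectable.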
